A study of Homo sapiens with 6 samples.

Results

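The MHC class I antigen presentation and immunoproteasome genes HLA-B, HLA-C, HLA-E, B2M, TAP1, TAP2, TAPBP, PSMB8 and PSMB9 were examined by RNA-seq in HT-29 cells, a human colorectal adenocarcinoma cell line. They were chosen by gene name, each from the row holding its Entrez gene identifier, and make up 9 of the 27434 rows of each library. The cells had received a non-targeting siRNA pool (siNT), a pool against the lncRNA HOXA-AS3 (siHOXA-AS3) or a pool against the lncRNA HOXB-AS3 (siHOXB-AS3). Each condition had 2 libraries of polyadenylated RNA, and harvest was at 48 hours after transfection with DharmaFECT 4. The sample labels give a dose of 10 nM and a column kit for RNA extraction, whereas the study's methods give a higher dose and another reagent. All 3 groups thus share the transfection, and no untransfected cells were included. The labels number the libraries but do not say whether the 2 libraries of a group came from separate cultures, so the p-values measure the spread between libraries, which may be technical.

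MHC class I molecules show short peptides from inside the cell to CD8+ T cells. The proteasome cuts proteins into peptides, and TAP1 and TAP2, which form the transporter TAP, carry the peptides into the endoplasmic reticulum. There TAPBP (tapasin) helps load them onto a heavy chain, such as HLA-B, HLA-C or HLA-E, paired with the light chain B2M. PSMB8 and PSMB9 are catalytic subunits that replace PSMB5 and PSMB6 when the proteasome is rebuilt as the immunoproteasome, and interferon-γ is a well known inducer of most of these genes. HLA-E also presents peptides from the leader sequences of other class I heavy chains to inhibitory receptors of natural killer cells.

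Of the 9 genes, 8 lie in the MHC on chromosome 6 and B2M lies on chromosome 15. In GENCODE v29 (build GRCh38), PSMB8 (chr6:32840717-32844703, minus strand) and PSMB9 (chr6:32844136-32859585, plus strand) overlap on opposite strands and share 139 exonic bases. TAP1 (chr6:32845209-32853978, minus strand) and TAP2 (chr6:32821833-32838780, minus strand) lie on either side of PSMB8. HLA-B and HLA-C are neighbours on the minus strand, and HLA-E (chr6:30489467-30494205, plus strand) and TAPBP (chr6:33299694-33314387, minus strand) mark the ends of the span. B2M is at chr15:44711487-44718877 on the plus strand.

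RefSeq promoters (build GRCh38.p14, 250 bases before to 50 bases after each annotated start) were found for 8 of the 9 genes, with 10 windows in all because TAP1 and PSMB8 have 2 starts each. They are shown because the genes share regulators, and 4 kinds of letters were searched on both strands. These were the interferon-stimulated response element (ISRE, GAAA and GAAA with any 2 bases between), a κB site bound by NF-κB in 2 forms (GGG, any 2 bases, then TTCCC or TTTCC), the core of the X2 box (TGACG) and the core of the Y box (ATTGG), the last 2 being parts of the module through which the class I transactivator NLRC5 acts. In the sequences below capitals mark these letters, on either strand, with overlapping matches run together. HLA-B and HLA-C hold an X2 core followed by several Y cores, and B2M holds all kinds of letters.
HLA-B, chr6:31357130-31357429, minus strand: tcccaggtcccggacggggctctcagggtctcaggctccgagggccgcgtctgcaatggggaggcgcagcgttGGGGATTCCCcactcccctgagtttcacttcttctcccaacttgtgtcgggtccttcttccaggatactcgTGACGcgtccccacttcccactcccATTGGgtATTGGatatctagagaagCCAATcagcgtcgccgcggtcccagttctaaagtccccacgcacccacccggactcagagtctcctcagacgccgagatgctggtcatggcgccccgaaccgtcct
HLA-C, chr6:31272043-31272342, minus strand: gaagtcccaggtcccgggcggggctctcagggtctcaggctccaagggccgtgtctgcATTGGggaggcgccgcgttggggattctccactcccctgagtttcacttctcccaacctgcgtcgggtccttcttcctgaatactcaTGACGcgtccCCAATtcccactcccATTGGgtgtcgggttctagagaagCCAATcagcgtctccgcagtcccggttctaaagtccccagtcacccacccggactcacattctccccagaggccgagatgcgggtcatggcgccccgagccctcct
B2M, chr15:44711267-44711566, plus strand: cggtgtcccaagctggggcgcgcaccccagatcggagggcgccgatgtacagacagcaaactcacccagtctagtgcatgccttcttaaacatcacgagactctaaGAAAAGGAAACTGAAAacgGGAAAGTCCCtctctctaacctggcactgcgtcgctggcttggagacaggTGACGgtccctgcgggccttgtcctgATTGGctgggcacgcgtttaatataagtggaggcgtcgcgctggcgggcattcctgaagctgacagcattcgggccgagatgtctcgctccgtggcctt
The first TAP1 start, TAP2 and TAPBP are shown because their windows hold the ISRE letters at different distances from the start.
TAP1, chr6:32853655-32853954, minus strand: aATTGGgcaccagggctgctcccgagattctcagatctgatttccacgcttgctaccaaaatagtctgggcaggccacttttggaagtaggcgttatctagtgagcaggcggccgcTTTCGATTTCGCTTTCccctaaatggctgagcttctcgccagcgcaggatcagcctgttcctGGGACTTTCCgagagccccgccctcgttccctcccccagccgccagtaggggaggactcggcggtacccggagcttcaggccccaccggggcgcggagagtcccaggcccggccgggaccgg
TAP2, chr6:32838690-32838989, minus strand: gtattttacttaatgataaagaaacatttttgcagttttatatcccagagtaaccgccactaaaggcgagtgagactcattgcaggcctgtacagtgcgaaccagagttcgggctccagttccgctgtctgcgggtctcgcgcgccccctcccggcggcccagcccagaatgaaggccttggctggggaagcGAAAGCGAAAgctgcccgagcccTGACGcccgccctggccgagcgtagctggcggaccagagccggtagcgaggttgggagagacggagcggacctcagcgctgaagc
TAPBP, chr6:33314029-33314328, minus strand: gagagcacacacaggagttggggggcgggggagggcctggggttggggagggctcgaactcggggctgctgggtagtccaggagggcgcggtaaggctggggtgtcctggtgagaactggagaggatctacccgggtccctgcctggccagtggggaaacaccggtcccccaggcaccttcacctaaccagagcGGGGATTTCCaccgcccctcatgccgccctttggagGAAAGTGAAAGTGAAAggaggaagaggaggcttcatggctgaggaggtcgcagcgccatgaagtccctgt

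ISRE letters were in a promoter of 5 of the 8 genes (B2M, TAP1, TAP2, TAPBP and the second start of PSMB8) and in 3.57% of all 35116 promoters of this length. In TAPBP the 2 overlapping matches began 20 and 14 bases before the start, and in TAP1 and B2M they began between 128 and 144 bases before it. A κB form was present for 4 of the 8 genes (HLA-B, B2M, TAP1 and TAPBP) and for 3.88% of all promoters. Both an X2 core and a Y core were present for HLA-B, HLA-C, B2M and PSMB9, which is 4 of the 8, and for 8.69% of all promoters. Taken singly, the X2 core was in 24.6% and the Y core in 34.6% of all promoters. Of the 10 windows, 5 held ISRE letters, 4 a κB form and 4 both cores. The X2 and Y cores began 75 and 49 bases before the start of B2M. In PSMB9 they lay farther apart, beginning 144 and 243 bases before the start. The X2 core began 106 bases before the start of HLA-B and 105 before that of HLA-C, and a Y core on the other strand began 56 bases before the start in both. These matches describe letters in a window and are not evidence of binding in HT-29 cells. Only these exact forms were searched, so a window without a match, such as HLA-B or HLA-C for the ISRE, may still hold a variant form.

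The siRNAs themselves had only short matches to these genes. The 19-base cores of both pools were searched as written and as their reverse complement. The longest run found in a transcript of any of the 9 genes was 11 bases, and it was in HLA-C. The 4 HOXA-AS3 siRNAs and one strand of each of the 3 HOXB-AS3 duplexes are given to show where their longest runs lie, with each run in capitals. The B2M run and the siHOXB-AS3 run in HLA-C occur in the transcript as written. The other printed runs occur in it as their reverse complement.
siHOXA-AS3, longest run in PSMB8: gagaCAGAAUAGCgaacaa
siHOXA-AS3, longest run in B2M: cAAUGGAAGGGccgaacaa
siHOXA-AS3, longest run in HLA-C: aggaAAGGACAGCgaagcu
siHOXA-AS3, longest run in TAP1: guagaCAGGGCACUcguua
siHOXB-AS3, longest run in TAP2: cgacaaAGGGAGACAaaguuu
siHOXB-AS3, longest run in TAP2: gagucgggcAUGAAAGAAAuu
siHOXB-AS3, longest run in HLA-C: gucAAGGGGUGAAGggaaauu

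Library totals ranged from 15998518 to 26263938 expected counts, and 13034 genes, all 9 class I genes among them, passed the filter on low counts. The targeted HOXA-AS3 was low in these cells, with 38 and 18 expected counts in siNT and 12 in each siHOXA-AS3 library (log2 fold change −1.09, SE 0.403, edgeR adjusted p = 0.711). HOXB-AS3 had 303 and 213 expected counts in siNT and 67 and 76 in siHOXB-AS3 (log2 fold change −1.96, SE 0.248, edgeR adjusted p = 0.0678). The 2 siHOXA-AS3 libraries stood apart from each other. The log2 difference between them had an SD of 0.726 over genes and followed the GC content of the transcript (Pearson r = −0.768 across genes, which are not independent replicates), against SDs of 0.425 in siNT (r = 0.431) and 0.371 in siHOXB-AS3 (r = −0.157). Of the colon epithelium markers, 6 of 7 had a mean FPKM of at least 1, while CDX2 had 0.192. Fibroblast markers (5 genes) summed to at most 0.07 FPKM in every library with COL1A2, PDGFRB and DCN at 0, and endothelial markers (3 genes) also to at most 0.07 FPKM. Of 7 leukocyte markers, MS4A1 and LST1 were at 0 and PTPRC was at most 0.10 FPKM, whereas LYZ (mean 919.9 FPKM) and CD68 (mean 11.5 FPKM) were abundant. The 7 summed to 856.4 to 971.4 FPKM in siNT, 1074 to 1183 in siHOXA-AS3 and 728 to 779.9 in siHOXB-AS3. These sums were mostly LYZ, which was not called in siHOXA-AS3 or siHOXB-AS3 against siNT (edgeR adjusted p = 0.851 and 0.583). Of all genes, edgeR called 0% and 0.0614% there.

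Expression differed widely among the class I genes of these cells. Levels of different genes are compared here only as FPKM, which is scaled by transcript length. B2M was by far the most abundant, at 453.4 ± 62.3 FPKM (mean ± SD, n = 6 libraries), above 99.2% of all rows. TAPBP followed at 61.7 ± 8.43 FPKM, then HLA-C at 32.3 ± 3.31 and HLA-E at 22.9 ± 4.44. The ranges of these 4 genes over the libraries did not overlap, so each level stood beyond the spread of its neighbour.

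The lower part of the order was less distinct. PSMB8 had 6.96 ± 1.94 FPKM, HLA-B 5.30 ± 1.84, TAP2 3.30 ± 0.520 and TAP1 2.52 ± 0.450 (n = 6). The ranges of PSMB8 and HLA-B overlapped, as did those of HLA-B and TAP2 and of TAP2 and TAP1, although TAP2 was above TAP1 in 6 of 6 libraries. PSMB9 was lowest, at 0.433 ± 0.235 FPKM, which corresponds to only 3 to 17 expected counts per library. The order was the same within siNT, which is part of these libraries. TPM gave it too, but TPM only rescales FPKM within a library, so this is not a separate check.

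**Figure D1:**
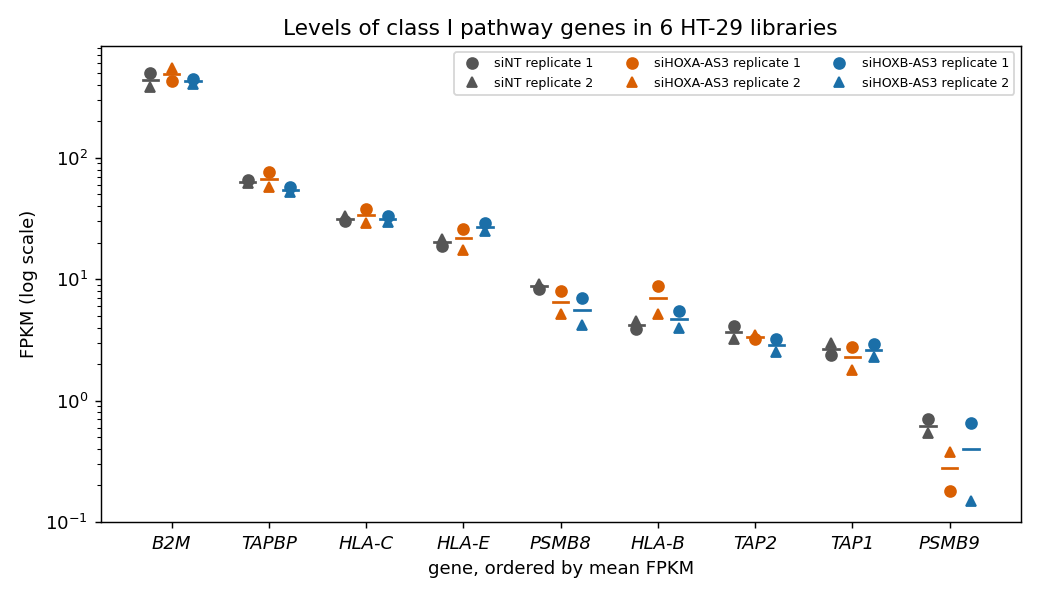
FPKM (log axis) of each class I gene in each library, ordered by mean FPKM, with circles for replicate 1, triangles for replicate 2 and a short bar at the mean of each group. B2M lies at 386.1 to 554.1 FPKM in every group, and PSMB9 at 0.15 to 0.70.

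Partner genes were therefore expressed at unequal RNA levels. The FPKM of B2M was 11.2 to 18.9 times that of HLA-C, the most abundant heavy chain among the 9 genes. Among heavy chains, HLA-C was 4.31 to 7.81 times the FPKM of HLA-B. TAPBP exceeded TAP1, a transporter subunit, by 19.6 to 32 times.

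The immunoproteasome subunits were minor beside their constitutive counterparts. PSMB8 reached 0.0946 to 0.215 of the FPKM of PSMB5, and PSMB9 only 0.00391 to 0.0189 of that of PSMB6. PSMB10, the remaining inducible subunit, reached 0.0522 to 0.145 of PSMB7. The PSMB8 to PSMB5 ratio was highest in siNT (0.212 and 0.215), lower in siHOXA-AS3 (0.197 and 0.139) and lowest in siHOXB-AS3 (0.162 and 0.0946), with both knockdown (KD) groups below siNT and overlapping each other. This ratio was not tested.

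Class II genes gave a point of reference. HLA-DRA, HLA-DRB1, HLA-DPA1 and HLA-DPB1, which encode chains of class II molecules, had 0 counts in every library, and their transactivator CIITA had a mean of 0.01 FPKM. NLRC5 had a mean of 0.133 FPKM. Its expected counts were 22 and 20 in siNT, 43 and 13 in siHOXA-AS3 and 8 and 4 in siHOXB-AS3. The log2 fold changes of NLRC5 against siNT were 0.375 for siHOXA-AS3 and −1.933 for siHOXB-AS3, on few reads. The JAK1, IFNGR1 and IFNGR2 genes of interferon-γ signalling had means of 39.2, 99.6 and 40.2 FPKM.

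Reads of several of these genes could be shared with others. Of all 50-base windows of a gene's annotated transcripts, 17.8% in HLA-B, 5.70% in HLA-C and 4.87% in HLA-E also occurred in another gene, and these 3 and TAPBP had expected counts that were not whole in 6 of 6 libraries, so RSEM had divided reads. In TAP2, 31.3% of windows occurred in the overlapping readthrough gene AL669918.1. PSMB8 shared 15.3% and TAP1 8.43% of windows with PSMB8-AS1 on the opposite strand, and the strand setting of the counting is not given in the sources used here. B2M shared none. Heavy chain genes also differ between people, and how the alleles of HT-29 matched the reference was not assessed.

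The first comparison asked how class I genes differed after HOXA-AS3 KD. None of the 9 genes passed edgeR's quasi-likelihood test (adjusted p under 0.05), where 0% of all genes tested did, and none had an unadjusted p under 0.05, which 6.16% of all genes had. DESeq2, which gave no adjusted p for PSMB9 in any comparison, also called none of the other 8 and 0.562% of all genes, and with the GC trend removed none of the 9 and 3.71% of all genes were called. In bulk samples, fewer cells of a kind and less RNA per cell cannot be told apart. The median log2 fold change of the 9 genes was 0.08, against 0.01 for all genes, and 5 of 9 were above 0. One gene had both KD libraries above both siNT libraries (12.5% of all genes) and 2 had both below (16.1%).

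HLA-B, a classical heavy chain, was the gene above. Its level was 5.66 and 6.68 CPM in siNT and 13.0 and 7.60 CPM in siHOXA-AS3. The KD libraries lay 0.77 apart on the log2 scale, and the lower one lay 0.30 above the siNT mean. The log2 fold change was 0.75 (SE 0.327, 95% interval −0.03 to 1.53, edgeR adjusted p = 0.826). It depended on the library kept. With siHOXA-AS3 replicate 1 left out it was 0.31, in a fit that called 30.3% of all genes and none of the 9. With replicate 2 left out it was 1.09 (edgeR adjusted p = 0.00229), in a fit that called 17.9% of all genes. Over all settings tried the adjusted p ranged from 0.00229 to 1.

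PSMB8 and PSMB9 were the genes with both KD libraries below siNT. PSMB8 had 8.43 and 9.58 CPM in siNT and 8.40 and 5.55 CPM in siHOXA-AS3, so that one KD library lay just under the control range (log2 fold change −0.36, SE 0.331, 95% interval −1.15 to 0.43, edgeR adjusted p = 0.985). It was −0.69 with siHOXA-AS3 replicate 1 left out and −0.09 with replicate 2 left out. PSMB9 had 17 and 8 expected counts in siNT and 4 and 6 in siHOXA-AS3, and its log2 fold change of −1.18 had an interval of −3.01 to 0.64 (edgeR adjusted p = 0.948). The interval is wide at so few reads.

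The other genes overlapped between siHOXA-AS3 and siNT. B2M had 423.8 and 332.3 CPM in siNT and 364.6 and 473.8 CPM in siHOXA-AS3, giving a log2 fold change of 0.15 with an interval of −0.31 to 0.61. TAPBP (0.08), HLA-C (0.10), HLA-E (0.12), TAP2 (−0.11) and TAP1 (−0.22) had adjusted p of 0.997 each by edgeR. Without siHOXA-AS3 replicate 1 the median of the 9 genes was −0.15.

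**Figure D2:**
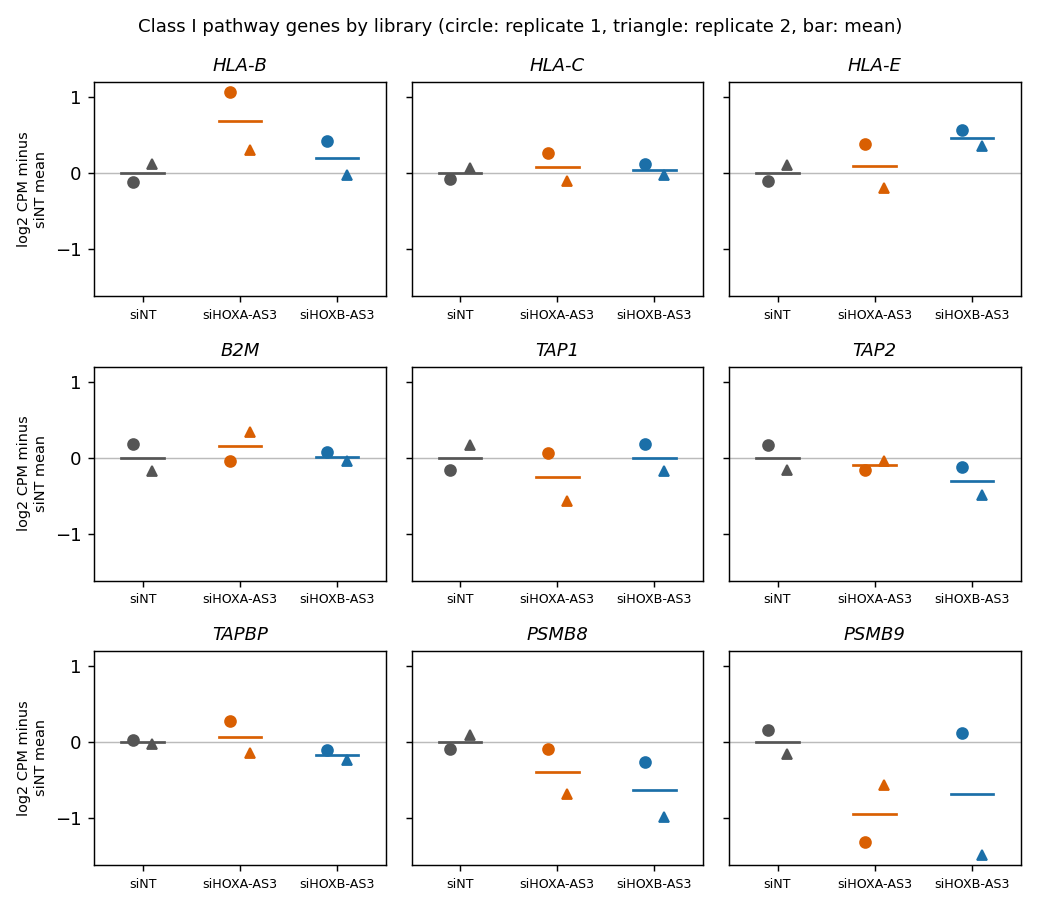
Log2 CPM of each class I gene in each library minus the mean of the 2 siNT libraries; circles are replicate 1, triangles replicate 2 and bars group means. HLA-B in siHOXA-AS3 lies at 1.07 and 0.30, HLA-E in siHOXB-AS3 at 0.57 and 0.36, and PSMB8 in siHOXB-AS3 at −0.27 and −0.99.

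The second comparison asked the same after HOXB-AS3 KD. Again none of the 9 genes was called, where edgeR called 0.0614% and DESeq2 3.02% of all genes, and none had an unadjusted p under 0.05, which 12.2% of all genes had. The median log2 fold change was 0.00 for the 9 genes and −0.01 for all genes. One gene had both KD libraries above siNT and 2 had both below, where 30.9% of all genes did in each direction.

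HLA-E was the gene with both libraries above. It had 46.9 and 54.2 CPM in siNT and 74.6 and 64.9 CPM in siHOXB-AS3, a log2 fold change of 0.47 (SE 0.237, 95% interval −0.10 to 1.03, edgeR adjusted p = 0.507). The groups did not overlap, and the value stayed between 0.36 and 0.58 under all 17 other settings. Whether it was called depended on the setting. It was called when only siNT and siHOXB-AS3 were fitted (edgeR adjusted p = 0.00637, with 23.3% of all genes called), with the GC trend removed (0.55, edgeR adjusted p = 0.0132, 12.6%) and without siHOXA-AS3 replicate 1 (edgeR adjusted p = 0.00537, 22.7%) or replicate 2 (edgeR adjusted p = 0.0048, 22.6%). Over all settings the adjusted p ranged from 0.0048 to 1.

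PSMB8 and TAPBP were the genes with both siHOXB-AS3 libraries below siNT. PSMB8 had 8.43 and 9.58 CPM in siNT against 7.44 and 4.49 CPM, and the KD libraries differed from each other more than the nearer one did from siNT (log2 fold change −0.59, SE 0.332, 95% interval −1.38 to 0.20, edgeR adjusted p = 0.553). TAPBP had 227.6 and 219.9 CPM in siNT and 206.9 and 189.8 CPM in the KD, a small difference of −0.17 (SE 0.182, edgeR adjusted p = 0.776). PSMB8 had −1.001 with siHOXB-AS3 replicate 1 left out and −0.27 with replicate 2 left out. Neither gene was called under any setting.

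HLA-B, HLA-C, B2M, TAP1, TAP2 and PSMB9 overlapped between the groups. B2M had 394.4 and 363.9 CPM in siHOXB-AS3, both inside the range of siNT, with a log2 fold change of 0.00 and an interval of −0.46 to 0.46. TAP1 also had 0.00 (−0.71 to 0.72), HLA-C 0.05 (−0.43 to 0.52) and HLA-B 0.22 (−0.56 to 1.00). TAP2 had 22.4 and 17.8 CPM in siNT and 18.3 and 14.2 CPM in siHOXB-AS3 (−0.31, interval −0.85 to 0.23). PSMB9 had 15 and 3 expected counts in the KD, one inside and one below the siNT range.

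**Figure D3:**
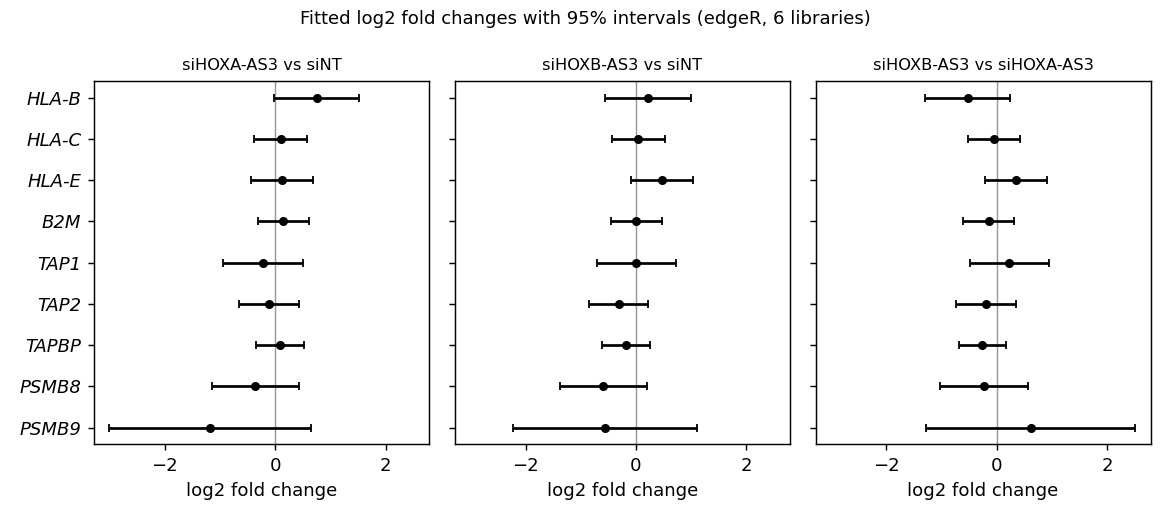
Log2 fold changes of the class I genes (points) with 95% intervals (bars) from edgeR on 6 libraries, in the 3 comparisons. Every interval includes 0, and the widest is that of PSMB9, for example −3.01 to 0.64 for siHOXA-AS3 vs siNT.

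The third comparison set the KDs against each other. All 9 genes overlapped between siHOXB-AS3 and siHOXA-AS3, where 22.8% of all genes had both siHOXB-AS3 libraries above and 22.5% had both below. None of the 9 was called, where edgeR called 1.57% of all genes, DESeq2 6.28% and the fit of only these groups 0.0156%. None had an unadjusted p under 0.05, which 18.4% of all genes had. The largest values were 0.62 for PSMB9 (interval −1.27 to 2.51), −0.53 for HLA-B (−1.30 to 0.24, edgeR adjusted p = 0.447) and 0.35 for HLA-E (−0.22 to 0.91, edgeR adjusted p = 0.498). HLA-E was called with the GC trend removed (0.40, edgeR adjusted p = 0.0288, with 24.7% of all genes called). Without siHOXA-AS3 replicate 1, HLA-E (0.66, edgeR adjusted p = 0.00139) and B2M (−0.32, edgeR adjusted p = 0.0472) were called along with 37.8% of all genes. Without replicate 2, HLA-B (−0.86, edgeR adjusted p = 0.00529) and TAPBP (−0.46, edgeR adjusted p = 0.00189) were called along with 36% of all genes.

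The 2 siHOXA-AS3 libraries differed for most of the 9 genes. In that group replicate 2 was below replicate 1 by 0.77 on the log2 scale for HLA-B, 0.57 for HLA-E, 0.37 for HLA-C and 0.43 for TAPBP, whose transcripts have 59.7% to 62.1% GC. B2M, with 41.2% GC, was instead 0.38 higher in replicate 2. The median over all genes tested was −0.80 in the bin of 60% to 65% GC and 0.57 in that of 40% to 45% GC. PSMB9 and TAP2, with 53.2% and 53.6% GC, were higher in replicate 2 by 0.76 and 0.11, whereas PSMB8 and TAP1, with 53.3% and 54.6%, were lower by 0.59 and 0.63. The part of GC content in the comparisons was not tested beyond the fit with its trend removed.

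**Figure D4:**
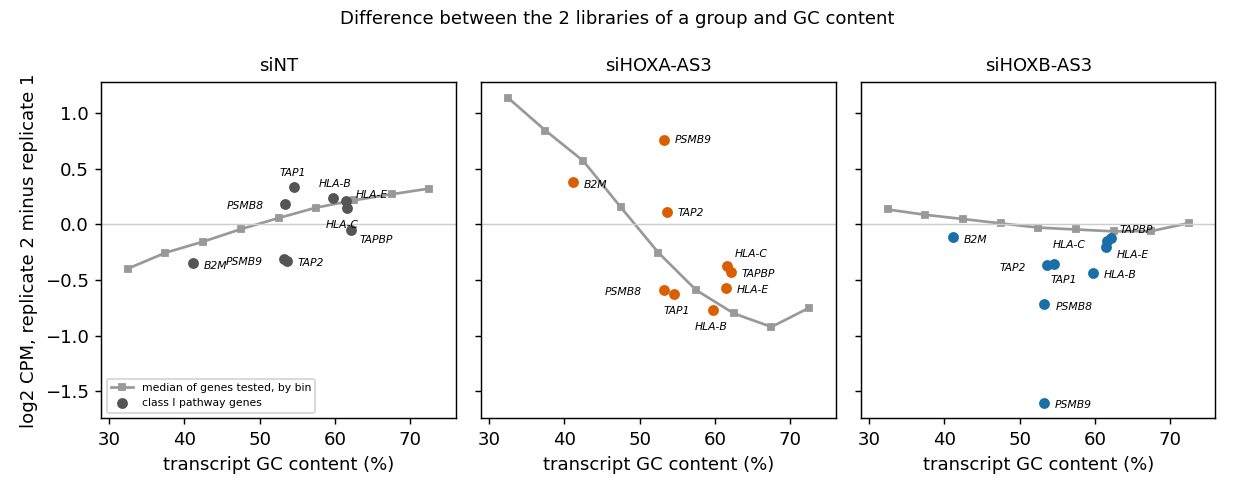
Log2 CPM of replicate 2 minus replicate 1 within each group against the GC content of the transcripts (%), for the class I genes (coloured points) and as the median of all genes tested in bins of 5 percentage points (grey line). The siHOXA-AS3 line runs from 1.14 to −0.75 across the bins, with B2M at 0.38 and HLA-B at −0.77.

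Genes that work beside the 9 were described from lists of the pathway. In peptide loading and trimming (CALR, CANX, PDIA3, ERAP1, ERAP2, TAPBPL and UGGT1), 0 of 7 were called by edgeR in either KD against siNT (0% and 0.0614% of all genes). Their medians were −0.16 after HOXA-AS3 KD and −0.37 after HOXB-AS3 KD. An unadjusted p under 0.05 was found for 0 and 2 of them (6.16% and 12.2% of all genes), and DESeq2 called 0 and 1 (0.562% and 3.02%). After HOXB-AS3 KD, 4 of the 7 had both libraries below siNT, where 30.9% of all genes did. CALR encodes calreticulin, the chaperone that holds heavy chains during loading. It had 408.4 and 461.8 CPM in siNT, 457.9 and 320.8 CPM in siHOXA-AS3 and 215.4 and 261.1 CPM in siHOXB-AS3. Both siHOXB-AS3 libraries were lower than all others (log2 fold change against siNT −0.87, SE 0.212, edgeR adjusted p = 0.178). The difference was called by DESeq2 (adjusted p = 0.0255) and with only the groups compared (edgeR adjusted p = 2.68e-06), where 3.02% and 23.3% of all genes were. ERAP1, which trims peptides in the endoplasmic reticulum, had 27.4 and 23.0 CPM in siNT and 17.5 and 14.02 CPM in siHOXB-AS3 (−0.68, SE 0.232, edgeR adjusted p = 0.3). It passed with only the groups compared (edgeR adjusted p = 0.00208) and with the GC trend removed (edgeR adjusted p = 0.0164), where 23.3% and 12.6% of all genes did. After HOXA-AS3 KD the largest values at a mean FPKM of at least 1 were −0.30 for ERAP2 and −0.17 for CANX, which both overlapped with siNT. With siHOXA-AS3 replicate 1 left out they were 0.06 and 0.07, and with replicate 2 left out −0.77 and −0.44 (edgeR adjusted p = 0.000993 and 0.00688, where 17.9% of all genes passed).

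Proteasome genes varied in both directions. Of PSMB10, the activator subunits PSME1 and PSME2 and the assembly factor POMP, 0 of 4 were called in either KD by edgeR or DESeq2, and 0 had an unadjusted p under 0.05. After HOXA-AS3 and HOXB-AS3 KD, edgeR called 0% and 0.0614% of all genes and DESeq2 0.562% and 3.02%. The shares with an unadjusted edgeR p under 0.05 were 6.16% and 12.2%. PSMB10 had 17.2 and 20.7 CPM in siNT, 16.9 and 7.07 CPM in siHOXA-AS3 and 15.7 and 12.9 CPM in siHOXB-AS3, below siNT in all 4 KD libraries (−0.65, SE 0.392, edgeR adjusted p = 0.923, and −0.41, SE 0.39, edgeR adjusted p = 0.747). The difference after HOXA-AS3 KD rested on 1 library, since it was −1.42 (edgeR adjusted p = 8.69e-05) with siHOXA-AS3 replicate 1 left out and −0.16 with replicate 2 left out. With these libraries left out, edgeR called 30.3% and 17.9% of all genes. POMP had 72.5 and 61.4 CPM in siNT, and the siHOXA-AS3 libraries lay on either side at 53.1 and 121.1 CPM. Its log2 fold change of 0.38 (edgeR adjusted p = 0.987) was 0.85 (edgeR adjusted p = 0.000126) with replicate 1 left out, −0.33 with replicate 2 left out and 0.12 with the GC trend removed. After HOXB-AS3 KD, POMP had 88.7 and 106.4 CPM and a log2 fold change of 0.54 (edgeR adjusted p = 0.621), which passed with only the groups compared (0.54, edgeR adjusted p = 0.00198, where 23.3% of all genes did) and with the GC trend removed (0.42, edgeR adjusted p = 0.0277, where 12.6% did). None of PSMB5, PSMB6 and PSMB7 was called by edgeR or DESeq2 in either KD or had an unadjusted p under 0.05, and the same shares of all genes apply. PSMB7 had 0.27 after HOXB-AS3 KD (edgeR adjusted p = 0.542) and passed with only the groups compared (edgeR adjusted p = 0.0395, where 23.3% of all genes did).

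Among 18 regulators of class I genes, none was called by edgeR in any comparison (0% of all genes after HOXA-AS3 KD, 0.0614% after HOXB-AS3 KD and 1.57% between the KDs). An unadjusted p under 0.05 was found for 3 after HOXA-AS3 KD (6.16% of all genes), 4 after HOXB-AS3 KD (12.2%) and 7 between the KDs (18.4%). DESeq2 called 0, 1 and 1 of them, and 0.562%, 3.02% and 6.28% of all genes. IFNGR1, the ligand-binding chain of the interferon-γ receptor, had 167.9 and 131.8 CPM in siNT, 115.6 and 190.0 CPM in siHOXA-AS3 and 286.2 and 308.9 CPM in siHOXB-AS3. It was highest in both siHOXB-AS3 libraries (0.99, SE 0.259, edgeR adjusted p = 0.198), a difference that DESeq2 called (adjusted p = 0.0187). IRF2, a factor that binds ISREs, had 23.5 and 18.2 CPM in siNT and 14.5 and 10.9 CPM in siHOXB-AS3 (−0.72, SE 0.235, edgeR adjusted p = 0.284). IRF1, another such factor, had 44.6 and 51.6 CPM in siNT and 36.4 and 18.9 CPM in siHOXA-AS3 (−0.79, SE 0.31, edgeR adjusted p = 0.753; −1.35 and −0.39 with siHOXA-AS3 replicate 1 and 2 left out). IRF9, part of the complex that type I interferon activates, was on the other side, at 5.47 and 6.24 CPM in siNT and 10.9 and 8.94 CPM in siHOXA-AS3 (0.77, SE 0.246, edgeR adjusted p = 0.641). Both siHOXB-AS3 libraries were also above siNT for IRF9, at 8.38 and 10.4 CPM (log2 fold change 0.685). With the GC trend removed, IRF1 and IRF9 passed after HOXA-AS3 KD (edgeR adjusted p = 0.0277 and 0.049), where 3.71% of all genes did. IRF2 and IFNGR1 passed after HOXB-AS3 KD with that trend removed (edgeR adjusted p = 0.0342 and 0.0011, 12.6%). These 2 also passed with only the groups compared (edgeR adjusted p = 0.00336 and 9.46e-07, 23.3%). NLRC5, under a mean of 1 FPKM, is described with the class II genes.

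Of 23 interferon-stimulated genes, 20 were tested and none was called by edgeR in any comparison (0% of all genes after HOXA-AS3 KD, 0.0614% after HOXB-AS3 KD and 1.57% between the KDs). An unadjusted p under 0.05 was found for 3 after HOXA-AS3 KD (6.16% of all genes), 5 after HOXB-AS3 KD (12.2%) and 5 between the KDs (18.4%). DESeq2 called 0, 0 and 3 of them, and 0.562%, 3.02% and 6.28% of all genes. Their median log2 fold change was 0.40 after HOXA-AS3 KD and −0.14 after HOXB-AS3 KD. After HOXA-AS3 KD, 8 of 20 had both libraries above siNT (12.5% of all genes), and after HOXB-AS3 KD 12 of 20 had both below (30.9%). IFIT1, an interferon-induced RNA-binding protein, had 8.80 and 8.16 CPM in siNT, 13.7 and 19.9 CPM in siHOXA-AS3 and 6.95 and 7.48 CPM in siHOXB-AS3. These 3 groups did not overlap (0.98 for siHOXA-AS3 against siNT, SE 0.252, edgeR adjusted p = 0.53), and for siHOXB-AS3 against siHOXA-AS3 the log2 fold change was −1.22 (edgeR adjusted p = 0.0748; DESeq2 adjusted p = 0.00294). IFIT2, of the same family, had 0.66 after HOXA-AS3 KD (edgeR adjusted p = 0.736; 0.91 and 0.355 with siHOXA-AS3 replicate 1 and 2 left out) and −1.26 between the KDs (edgeR adjusted p = 0.0671; DESeq2 adjusted p = 0.00087). With the GC trend removed, IFIT1 and IFIT2 passed after HOXA-AS3 KD (edgeR adjusted p = 0.0163 and 0.0386), where 3.71% of all genes did. After HOXB-AS3 KD the largest values at a mean FPKM of at least 1 were −0.92 for UBE2L6, which charges the ubiquitin-like ISG15 (edgeR adjusted p = 0.284), and −0.62 for GBP2 (edgeR adjusted p = 0.402). UBE2L6 passed with only the groups compared (edgeR adjusted p = 0.0368, where 23.3% of all genes did).

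**Figure D5:**
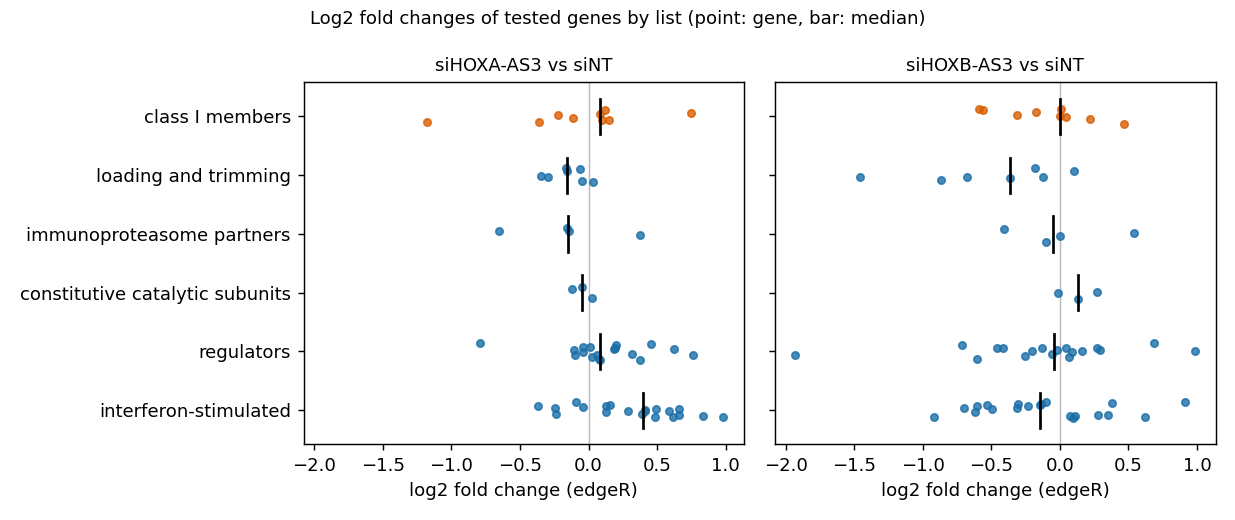
Log2 fold changes of the tested genes of each list (points) with the list's median (bar), for each KD against siNT. The medians of the class I genes are 0.08 and 0.00 and those of interferon-stimulated genes 0.40 and −0.14.

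Other genes of the MHC were counted for comparison. Between the start of HLA-E and the end of TAPBP, 77 of 139 other rows were tested and none was called by edgeR in any comparison. Of all genes, edgeR called 0% after HOXA-AS3 KD, 0.0614% after HOXB-AS3 KD and 1.57% between the KDs. For HOXA-AS3 KD, HOXB-AS3 KD and the KDs against each other, 6, 7 and 14 of the 77 had an unadjusted p under 0.05, where 6.16%, 12.2% and 18.4% of all genes did, and DESeq2 called 0, 1 and 4, where it called 0.562%, 3.02% and 6.28%. Their medians were −0.07 after HOXA-AS3 KD, −0.12 after HOXB-AS3 KD and −0.03 between the KDs. At a mean FPKM of at least 1, the largest values against siNT were −1.11 for HCG27 and −0.84 for the tubulin gene TUBB after HOXA-AS3 KD, and −1.54 for PSORS1C1 and −0.92 for the choline transporter gene SLC44A4 after HOXB-AS3 KD (edgeR adjusted p = 0.711, 0.517, 0.416 and 0.133). DESeq2 called SLC44A4 (adjusted p = 0.00857).

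The mean log2 CPM of the 9 genes was 4.44 and 4.45 in siNT, 4.49 and 4.26 in siHOXA-AS3 and 4.55 and 4.10 in siHOXB-AS3. In both KD groups replicate 2 had the lower mean. PSMB9, at 3 to 17 expected counts per library, entered this mean with log2 CPM from −2.102 to −0.455. Among 10895 other genes, those whose pattern over the 6 libraries was most like this mean were CYB5D2 (Pearson r = 0.979), ZNF213-AS1 (0.962), B4GAT1 (0.951), ZNF691 (0.942) and TEX261 (0.938). These are descriptions over 6 libraries that share depth and GC differences.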

How the data were processed

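RNA-seq libraries of HT-29 cells were prepared with the SENSE mRNA-Seq kit. For every library the authors deposited expected counts from RSEM (estimated fragments per RefSeq gene, not normalized), TPM and FPKM. The submitters' processing notes name hg19. Aligner, RSEM version and strandedness: not given in the sources used here. In each file 627 of 27434 rows join several genes (6.02% to 6.62% of counts).

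Expected counts were rounded and tested in R 4.3.3 with edgeR 4.0.16 (filterByExpr with a minimum count of 10, TMM, robust quasi-likelihood fit of all 6 libraries). Benjamini-Hochberg adjustment was over 13034 genes with a threshold of 0.05. CPM are TMM-scaled, and intervals are at 95%. No pair of libraries was identical (smallest chi-square per degree of freedom 6.77). Data were simulated with 200 changed genes among 13034, drawn gene by gene from the fitted dispersions without a GC trend between libraries. In them edgeR recovered 84% of 4-fold and 27% of 2-fold changes for siHOXA-AS3 against siNT. For siHOXB-AS3 against siNT it recovered 82% and 34%.

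Alternatives were DESeq2 1.42.0, other scalings and filters, only the groups compared, replicate blocks, limma 3.58.1 on log2(FPKM + 0.1) and log2(FPKM + 1), loess removal of the GC trend (span 0.5; GC for 94.1% of genes, from GENCODE v29) and leaving out each library. GENCODE v29 and the RefSeq promoters are on GRCh38, so no coordinates of the deposited build are used. Genes named beside the 9 are those called and, per list and comparison, the 2 with the largest change at a mean FPKM of at least 1. The 9 genes and all lists were chosen with earlier results of these data known. One planned result is not reported here.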

Additional observations from a re-analysis of the deposited data

How the results depend on the processing

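Of 290 values of the class I genes with an adjusted p under settings that kept all libraries, 273 kept their direction and their side of the threshold, 3 passed the threshold and 14 changed sign. DESeq2 gave 3 values of PSMB9 without an adjusted p, which kept their direction. The changes of sign were all for siHOXB-AS3 against siNT and near 0. With library totals HLA-C had −0.002, B2M −0.044 and TAP1 −0.042. With the filter at 1 FPKM, B2M had −0.016 and TAP1 −0.015. On log2(FPKM + 0.1) HLA-C had −0.004, B2M −0.036 and TAP1 −0.040, and on log2(FPKM + 1) HLA-C had −0.003, B2M −0.036 and TAP1 −0.030. B2M had −0.055 with the GC trend removed, and TAP1 had −0.018 with the replicate block and −0.004 with the crossed block.

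The number of all genes called varied most. For siHOXA-AS3 against siNT, siHOXB-AS3 against siNT and siHOXB-AS3 against siHOXA-AS3, edgeR called 0, 8 and 204 genes. In that order DESeq2 called 59, 356 and 787, no filter 24, 265 and 706, and removal of the GC trend 483, 1647 and 3216. Fitting only the groups compared called 0, 2995 and 2. On log2(FPKM + 0.1) the calls were 1, 12 and 93, and on log2(FPKM + 1) 0, 12 and 76. With the replicate block they were 0, 0 and 10. The replicate numbers are not shown to pair the libraries, since deviations of same-numbered libraries correlated at −0.347 (siNT and siHOXA-AS3), −0.139 (siNT and siHOXB-AS3) and 0.15 (siHOXA-AS3 and siHOXB-AS3). With the crossed pairing, chosen after seeing the data, 14, 225 and 758 genes were called.

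Leaving out 1 library gave 0 to 4031, 0 to 3035 and 0 to 5027 genes called in the 3 comparisons, with the highest counts without a siHOXA-AS3 library. The median of the 9 genes ranged from −0.147 to 0.089, −0.19 to 0.11 and −0.32 to 0.11. For siHOXA-AS3 against siNT the ranges were −0.10 to 0.28 for HLA-C, −0.19 to 0.39 for HLA-E, −0.047 to 0.337 for B2M, −0.578 to 0.067 for TAP1, −0.269 to 0.067 for TAP2, −0.15 to 0.29 for TAPBP, −0.69 to −0.09 for PSMB8 and −1.73 to −0.71 for PSMB9. For siHOXB-AS3 against siNT they were −0.017 to 0.426 for HLA-B, −0.029 to 0.122 for HLA-C, −0.16 to 0.19 for B2M, −0.19 to 0.18 for TAP1, −1.001 to −0.272 for PSMB8 and −1.98 to 0.11 for PSMB9. Between the KDs they were −0.23 to 0.15 for HLA-C, −0.318 to 0.051 for B2M, −0.053 to 0.592 for TAP1, −0.64 to 0.11 for PSMB8 and −0.81 to 1.28 for PSMB9. The causes were not tested. With 2 libraries a group, 27% to 34% of simulated 2-fold changes were recovered, so differences of that size could be missed. The simulated libraries carried no GC trend, unlike the real ones, so the shares recovered in the real data may be lower. PSMB9 rests on 3 to 17 counts.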

Other observations

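Class II pathway genes outside the 9 were detected in part. HLA-DMA and HLA-DMB, which edit the peptides of class II molecules, had means of 5.33 and 1.06 FPKM although HLA-DRA, HLA-DRB1, HLA-DPA1 and HLA-DPB1 were at 0. HLA-DMA had 5.32 and 5.69 CPM in siNT, 7.05 and 5.50 CPM in siHOXA-AS3 and 4.44 and 3.93 CPM in siHOXB-AS3. Both siHOXB-AS3 libraries were below all others, and the log2 fold change against siNT was −0.39 (SE 0.252, edgeR adjusted p = 0.599). CD74, another gene of this list, had 19 and 5 expected counts in siNT, 19 and 9 in siHOXA-AS3 and 4 and 3 in siHOXB-AS3. Its log2 fold changes against siNT were 0.330 for siHOXA-AS3 and −1.769 for siHOXB-AS3, on few reads. Of 8 class II genes 3 were tested, and 0 were called in any comparison by edgeR or DESeq2. In the 3 comparisons edgeR called 0%, 0.0614% and 1.57% of all genes and DESeq2 0.562%, 3.02% and 6.28%. The unadjusted edgeR p was under 0.05 for 0 class II genes after HOXA-AS3 KD (6.16% of all genes), 1 after HOXB-AS3 KD (12.2%) and 1 between the KDs (18.4%).

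Among the 7 colon epithelium markers, EPCAM, a surface adhesion protein, was called by edgeR between the KDs, where 1.57% of all genes were. It had 453.4 and 440.4 CPM in siNT, 427.2 and 469.6 CPM in siHOXA-AS3 and 257.7 and 250.8 CPM in siHOXB-AS3 (log2 fold change between the KDs −0.82, SE 0.14, edgeR adjusted p = 0.0471). Against siNT the value was −0.81 (edgeR adjusted p = 0.101; DESeq2 adjusted p = 0.0104). The call between the KDs was lost with only the groups compared (−0.83, edgeR adjusted p = 0.178). CDH1, the epithelial cadherin, had −0.65 between the KDs (edgeR adjusted p = 0.0919, DESeq2 adjusted p = 0.0449) and −0.46 for siHOXB-AS3 against siNT. For siHOXB-AS3 against siNT 5 of the 7 markers were below 0, as were 6602 of all 13034 genes. The keratin genes KRT8 and KRT18 had 0.20 and 0.14, whereas KRT20 had −0.11, VIL1 −0.16 and CDX2, at a mean of 0.192 FPKM, −0.78.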
